A study of Drosophila melanogaster with 15 samples.

Results

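Whole Drosophila melanogaster embryos at stage T3, when gastrulation and germ band elongation begin, were compared with embryos at stage T2, in the fast phase of cellularisation. All 3 arrays titled T3 and all 3 titled T2 were taken, 6 of the 15 arrays of a series that runs over 5 stages from T0 to T4. The labels give the embryos of both stages as yellow white and Oregon R, a strain with body and eye colour mutations and a wild-type strain, and name no transgene and no treatment. Eggs came from short collections, and embryos were picked by hand under oil for their shape and extracted together. For T3 the sample labels speak of the start of germ band elongation and the series text of the start of gastrulation, and the difference could not be settled here. T0 embryos had not yet formed pole cells, T1 embryos were in the slow phase of cellularisation, and T4 embryos were at the end of gastrulation or germ band elongation. Whether replicates of a stage came from separate egg collections is not stated, so the p-values reflect the spread among these arrays only, which may be technical.

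During cellularisation membranes grow inward between the nuclei that line the egg cortex and turn the syncytial blastoderm into a sheet of cells. The fast phase completes this growth, and gastrulation follows at once: the mesoderm folds inward along the ventral midline and the germ band starts to lengthen. In the same period many early zygotic genes are switched off, segmentation passes from the pair-rule to the segment polarity genes, and the cells prepare for the first divisions after cellularisation.

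Each probe set gave 1 signal per array, in array units scaled so that the trimmed mean of every array was 100. Signals were tested as log2(signal + 7.3) in limma, and a call needed an adjusted p under 0.05 together with a log2 fold change, T3 over T2, of at least 1 in size. Fold changes on this scale understate the change of dim genes. Of 13966 probe sets, 93 were called higher at T3 (0.666%) and 108 lower (0.773%), 201 in all (1.44%). With 1 probe set for each of 10844 genes, 71 genes were higher (0.655%) and 92 lower (0.848%), 163 in all (1.5%). The counts of list members below are to be read against these shares, and unadjusted counts against 14.5% of all genes. At any fold, 256 probe sets (1.83%) had an adjusted p under 0.05, and the T3 and T2 arrays did not overlap for 2503 (17.9%). The stages were close to each other: Pearson r over all probe sets was between 0.916 and 0.942 for a T3 against a T2 array, between 0.934 and 0.95 among T3 arrays and between 0.93 and 0.939 among T2 arrays. Between 41% and 45.2% of the signals of these 6 arrays lay below 21.96, the 95th percentile of the negative-control probe sets, which is taken below as the background level. In whole embryos, fewer cells with a transcript and less RNA per cell cannot be told apart.

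The number of calls depended on how the spread and the scale were estimated. With the 6 arrays fitted alone 15 probe sets were called, 6 higher and 9 lower. The other stages then no longer add to the estimate of the spread, and the cause of the loss of calls was not tested. Of the called probe sets 46.3% were higher, but 61.5% with arrays centred on ribosomal protein genes and 20.7% with arrays centred on the 9 spiked hybridisation controls. The median log2 fold change, -0.003 over all probe sets, became 0.105 and -0.197 with these centrings. The calls numbered 119 (47 higher and 72 lower) without T3 replicate 2 and 127 (56 higher and 71 lower) without T3 replicate 1.

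**Figure D1:**
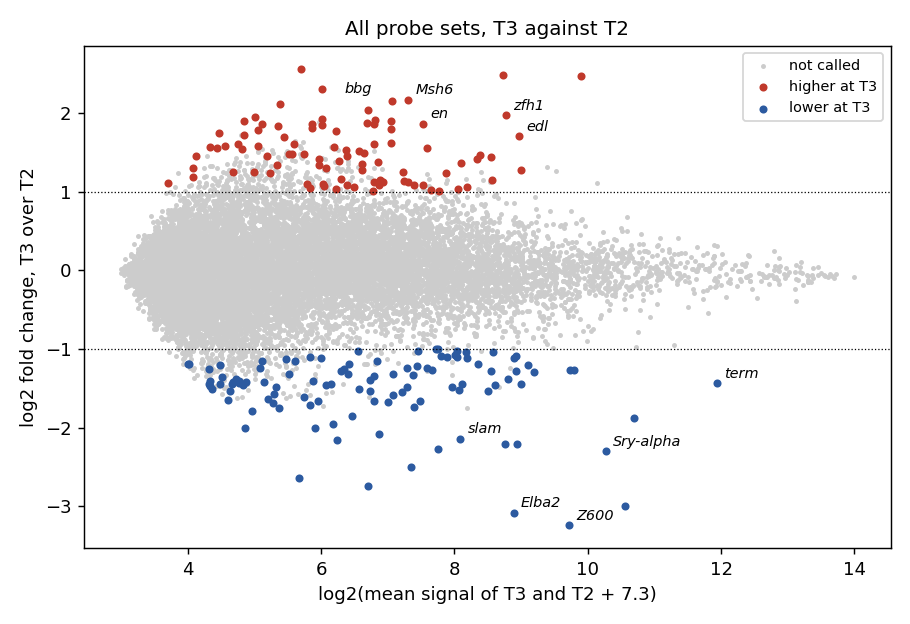
Log2 fold change of T3 over T2 (vertical axis) against the log2 mean signal of both stages plus 7.3 (horizontal axis) for 13966 probe sets, with 93 called higher at T3 in red and 108 called lower in blue. Dotted lines stand at log2 fold changes of 1 and -1, and the called probe sets with the widest change, Z600 and Elba2, lie on the lower side.

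Among the transcripts lower at T3 were zygotic genes that act during cellularisation, with Z600 at the lowest log2 fold change of all genes. Of 7 measured members of this list, 3 fell and none rose (0 higher and 4 lower at an unadjusted p under 0.05 in limma), and the median log2 fold change was -0.61, against -0.005 over all genes. Z600, which holds back mitosis in the blastoderm, had 142.7, 176.1 and 143.1 on the T3 arrays, against 1429.9, 1663.7 and 1459.2 on the T2 arrays. The stages were far apart with little spread within either, and the log2 fold change was -3.24 ± 0.24 (SE, adjusted p = 3.9e-05). Sry-alpha, which acts on actin at the furrow, had 372.2, 464.3 and 396.2 at T3 and 2051.7, 2046.8 and 2027.6 at T2, a log2 fold change of -2.30 ± 0.19 (SE, adjusted p = 3.9e-05). For slam, needed for the growth of the furrow membrane, the signals were 125.8, 60.7 and 99.2 at T3 and 369.5, 545.5 and 391.6 at T2, with a log2 fold change of -2.14 ± 0.24 (SE, adjusted p = 0.0006). All T3 arrays lay below all T2 arrays for these 3 genes.

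The other 4 cellularisation genes were not called. The nuclear lamina gene kuk averaged 3726 at T3 and 4127 at T2, and halo, which acts on lipid droplet transport, averaged 440 at T3 and 631 at T2. The actin regulator nullo had 57.5, 33.8 and 11.5 at T3 and 12.3, 13.3 and 12.1 at T2 (log2 fold change 0.89, adjusted p = 0.44), so that its arrays overlapped. The 3 calls of the list were made under all alternatives but 1: slam was not called with the 6 arrays alone (adjusted p = 0.08).

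**Figure D2:**
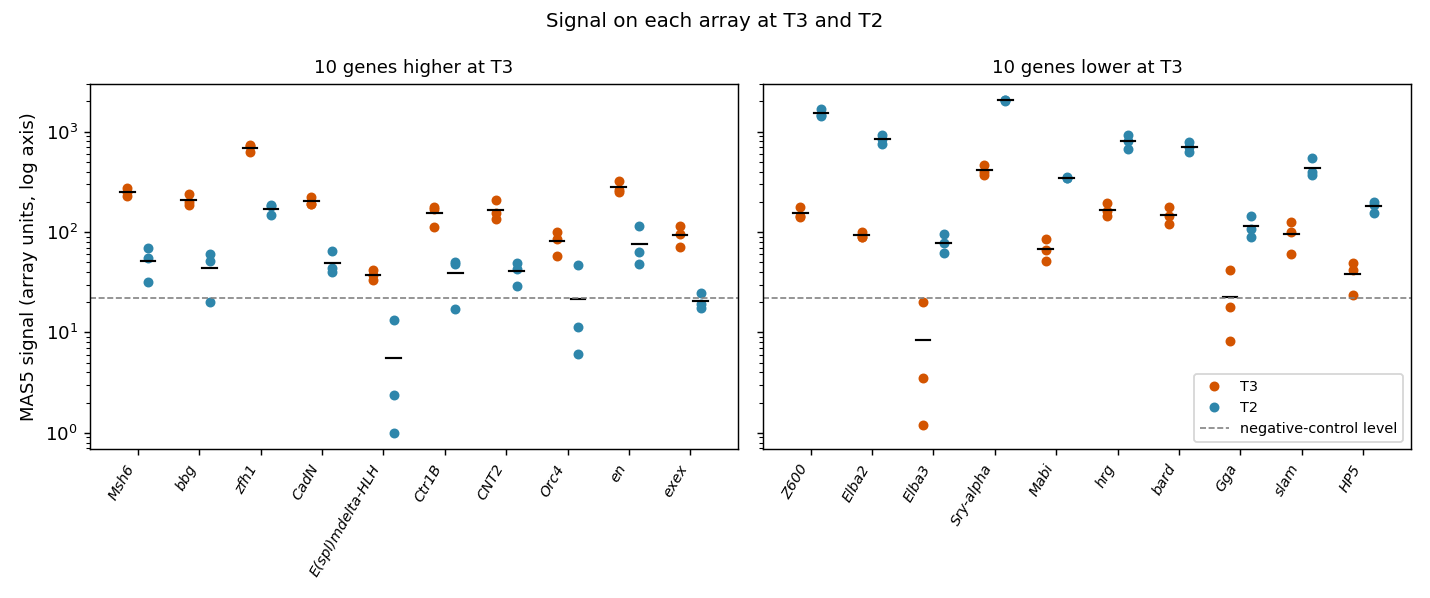
MAS5 signal (log axis, array units) on every T3 array and every T2 array for the 10 highest and 10 lowest called genes with a name, each point 1 array and each bar the mean of 3. The dashed line is the background level of 21.96, and all 3 T3 points of Elba3 lie below it. The T3 and T2 points of a gene do not overlap because the genes were chosen for that.

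Of 18 measured early zygotic factors that are expressed transiently, 10 fell and none rose (0 higher and 13 lower at an unadjusted p under 0.05), with a median log2 fold change of -1.26. Of all genes 0.848% were called lower. The list gathers genes by their transient expression, and its members were chosen with earlier results of these data known, so its falls are a description. No member had a log2 fold change above 0. Elba2 and Elba3, subunits of an early embryonic insulator complex, fell together. Elba2 had 99.2, 89.1 and 89.9 at T3 and 848.0, 750.2 and 927.1 at T2 (log2 fold change -3.08 ± 0.24 SE, adjusted p = 3.9e-05). Elba3 had 20.3, 1.2 and 3.5 at T3, all below background, and 96.3, 62.3 and 77.0 at T2, at least 3.52-fold lower at T3 (adjusted p = 0.0022). Where a fold is given as "at least", the stage with all its arrays below background was set to 21.96.

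The gene bard fell to 177.1, 119.3 and 143.0 at T3, against 787.4, 620.7 and 696.2 at T2 (log2 fold change -2.21, adjusted p = 0.00012). The gene SNCF had 570.5, 775.1 and 772.6 at T3 and 2356.6, 3038.2 and 2424.5 at T2, and term, a zinc finger gene, had 2139.6, 2094.0 and 2105.6 at T3 and 5974.1, 5232.4 and 6001.3 at T2. All T3 arrays of these genes lay below all T2 arrays, which the naming rule required for bard. The log2 fold change was -1.88 for SNCF (adjusted p = 0.0085) and -1.43 for term (adjusted p = 0.00095). Bro, a partner of the Runt factor in DNA binding, fell to 268 ± 17.2 at T3, against 740 ± 6.13 at T2 (SD, n = 3; limma adjusted p = 0.012). The gene dpn, a helix-loop-helix repressor of the X-counting pathway that later marks neuroblasts, fell to 135 ± 13.4 at T3, against 297 ± 33.4 at T2 (SD, n = 3; limma adjusted p = 0.016). The other 3 called members were CG13713, CG15876 and CG14427, with log2 fold changes of -2.75, -1.51 and -1.10. The call of CG13713 ended without T2 replicate 1, T2 replicate 4 or T3 replicate 1 (adjusted p between 0.061 and 0.077), and that of dpn without T2 replicate 1, T3 replicate 2 or T3 replicate 3 (adjusted p between 0.056 and 0.068).

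Members that did not pass included insv, an insulator partner of the Elba subunits, at 1124 at T3 and 2241 at T2 (log2 fold change -0.97, adjusted p = 0.039), just short of the fold threshold. The sex-determination gene Sxl averaged 784 at T3 and 805 at T2, and spo, a gene of ecdysone synthesis, 642 at T3 and 669 at T2. Their log2 fold changes were -0.00 and -0.06. The count of 10 fell to 6 with a pseudocount of 1 and to 2 with the 6 arrays alone.

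**Figure D3:**
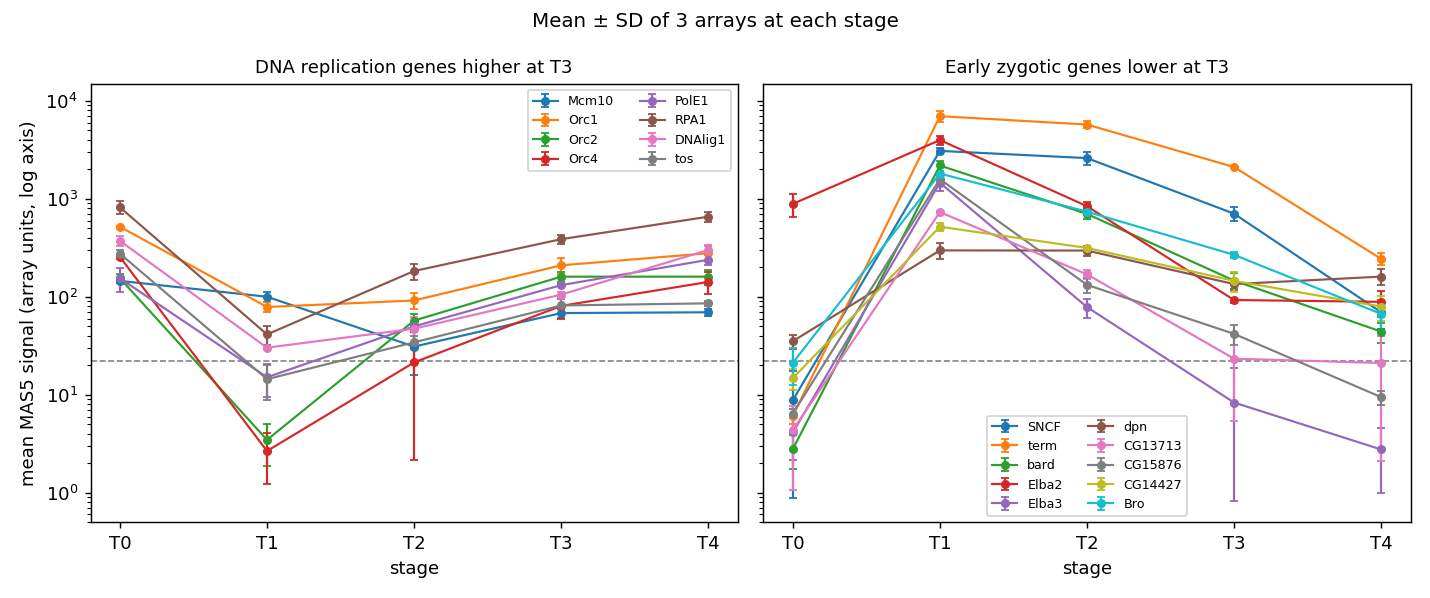
Mean MAS5 signal ± SD of 3 arrays (log axis, array units) over the stages T0 to T4 for the 8 DNA replication genes higher at T3 (left) and the 10 early zygotic genes lower at T3 (right), with the background level of 21.96 as a dashed line. Lower bars that would reach 0 or below are cut short on the log axis. The early zygotic genes stand at their highest mean at T1, apart from dpn with 298 at T1 and 297 at T2, and all 8 replication genes have a higher mean at T0 than at T2.

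Among the other leading falls were genes outside these lists. Mabi had 84.6, 51.4 and 66.2 at T3 and 352.3, 347.0 and 344.6 at T2, a log2 fold change of -2.27 (adjusted p = 0.0054). The poly(A) polymerase gene hrg had 143.6, 195.8 and 162.9 at T3 and 676.6, 930.9 and 803.4 at T2, a log2 fold change of -2.21 (adjusted p = 3.9e-05). For both genes the T3 arrays lay below the T2 arrays, as the rule that named them required. Gga, an adaptor for clathrin at the Golgi, had 18, 8.2 and 41.6 at T3 and 144.1, 89.5 and 108.2 at T2 (log2 fold change -2.15, adjusted p = 0.011), and HP5, a heterochromatin protein gene, fell to 38.1 ± 13.0 at T3, against 180 ± 22.2 at T2 (SD, n = 3; limma adjusted p = 0.0012). The other probe sets of HP5 had log2 fold changes of -0.77 and 0.07 and were not called.

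Calls were also made in the cell death and proteasome lists. In the cell death list of 11 genes, Dronc, the initiator caspase, had 58.8, 50.6 and 50.1 at T3 and 236.5, 171.9 and 156.7 at T2 (log2 fold change -1.68, adjusted p = 0.0083). The TNF ligand gene egr also fell, to 158 ± 10.1 at T3, against 344 ± 70 at T2 (SD, n = 3; limma adjusted p = 0.029), but this call ended under 12 of 17 alternatives, among them each of T2 replicate 3, T2 replicate 4 and the T3 replicates left out (adjusted p between 0.055 and 0.091). None of the 11 rose (0 at an unadjusted p under 0.05), and the list's median, 0.08, and its mean, -0.22, differed in sign. Of 39 proteasome genes 1 fell, Prosalpha4, with 566.2, 418.5 and 553.8 at T3 and 1529.4, 1026.5 and 1202.7 at T2 (log2 fold change -1.27, adjusted p = 0.0075), and none rose (2 higher and 6 lower at an unadjusted p under 0.05).

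Along the segmentation hierarchy 2 pair-rule genes fell and 1 segment polarity gene rose. Of 7 measured pair-rule genes, which pattern alternating segments, 2 fell and none rose (0 higher and 3 lower at an unadjusted p under 0.05), and all 7 had a log2 fold change below 0, with a median of -0.62. The homeobox gene eve had 376.9, 351.0 and 269.9 at T3 and 709.9, 875.5 and 869.4 at T2 (log2 fold change -1.29 ± 0.26 SE, adjusted p = 0.021). The paired-domain gene prd had 138.5, 162.7 and 234.8 at T3 and 348.1, 425.9 and 392.1 at T2 (log2 fold change -1.12 ± 0.26 SE, adjusted p = 0.045). The T3 arrays of both lay below their T2 arrays, as did those of ftz, with 670.2, 714.5 and 719.8 at T3 and 1268.9, 1222.0 and 1447.0 at T2, which was not called (adjusted p = 0.16). The call of eve ended under 7 of 17 alternatives and that of prd under 13. Leaving out T2 replicate 3, T2 replicate 4, T3 replicate 2 or T3 replicate 3 ended that of eve (adjusted p between 0.058 and 0.082), and leaving out any array but T3 replicate 3 ended that of prd (adjusted p between 0.087 and 0.15).

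None of 15 gap and head gap genes, which divide the embryo into broad regions, passed the test in limma (2 higher and 3 lower at an unadjusted p under 0.05), and their median was -0.29. Kr averaged 360 ± 19.2 at T3 and 264 ± 16.6 at T2, and hb averaged 229 ± 36.6 at T3 and 283 ± 54.1 at T2 (SD, n = 3). Of 17 segment polarity, Wnt and Hedgehog genes 1 rose and none fell (6 higher and 1 lower at an unadjusted p under 0.05), with a median of 0.36. This was en, the homeobox gene of the posterior compartment, with 262.7, 247.9 and 325.3 at T3 and 63.5, 47.6 and 115.1 at T2 (log2 fold change 1.86 ± 0.36 SE, adjusted p = 0.017). The en arrays did not overlap, but the call ended without T2 replicate 1, T2 replicate 3, T3 replicate 1 or T3 replicate 3 (adjusted p between 0.054 and 0.068). The ligand gene hh averaged 68.9 at T3 and 42.7 at T2 and gsb, a segment polarity gene with a paired domain, 334 at T3 and 178 at T2, and neither was called (adjusted p = 0.30 and 0.061). The uncalled members of highest signal were smo and ptc, with log2 fold changes of -0.61 and -0.12 (limma adjusted p = 0.31 and 0.88).

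**Figure D4:**
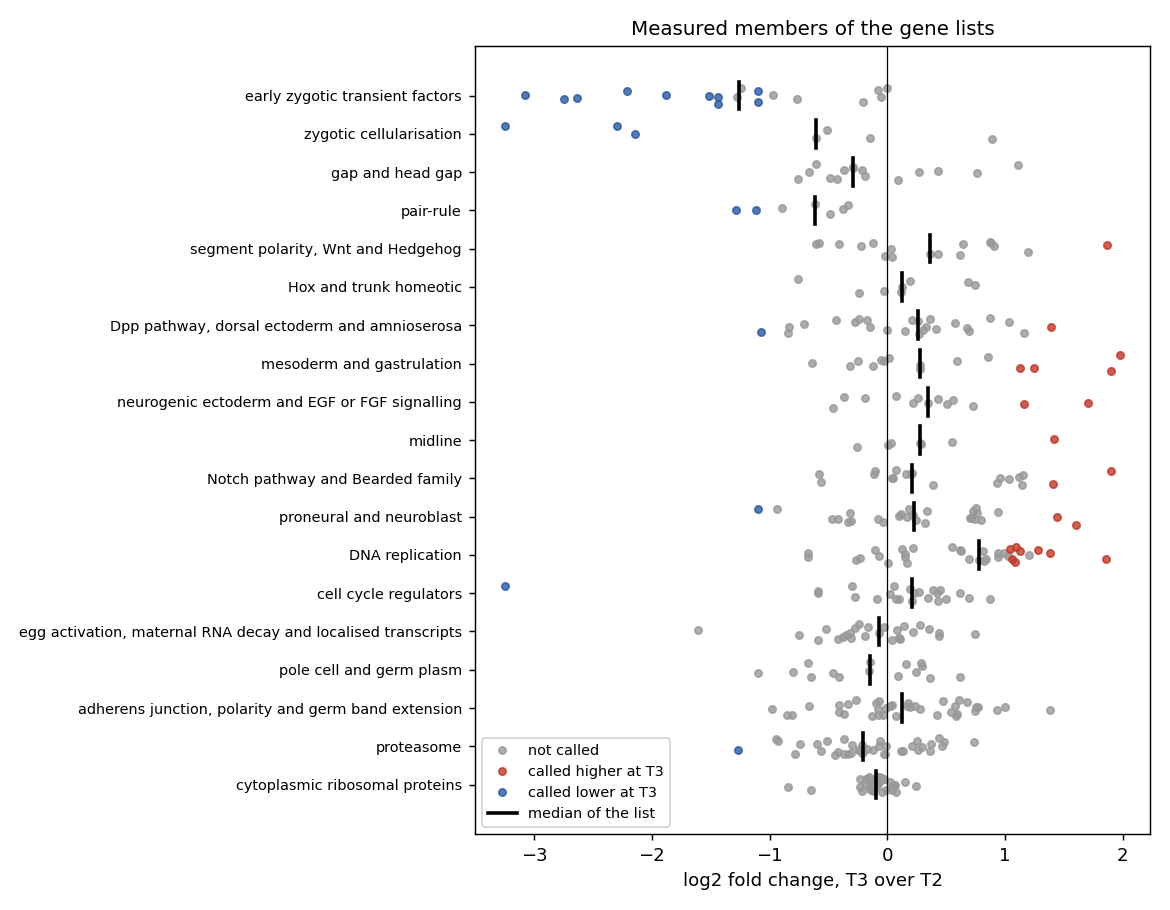
Log2 fold change of T3 over T2 for each measured gene (point) of 19 gene lists, red where called higher at T3, blue where called lower and grey where not called, with the median of each list as a bar. The early zygotic factors and the pair-rule genes lie at or below 0, and the DNA replication genes have the highest median, 0.78.

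In the mesoderm and gastrulation list of 15 genes 4 rose and none fell (5 higher and 0 lower at an unadjusted p under 0.05), with a median of 0.28. The zinc finger homeodomain gene zfh1, a mesoderm regulator, had 629.8, 716.0 and 728.2 at T3 and 147.0, 180.9 and 184.8 at T2, a log2 fold change of 1.98 ± 0.24 (SE, adjusted p = 0.00089). CadN, the N-cadherin that appears in mesoderm cells as they spread, had 188.8, 225.6 and 190.2 at T3 and 64.9, 40 and 43.5 at T2, a log2 fold change of 1.90 ± 0.25 (SE, adjusted p = 0.0018). Both were higher on every T3 array than on any T2 array, as the rule that named them among the 10 highest required. The TNF receptor gene wgn had 35.0, 50.1 and 28.4 at T3 and 11.8, 10.3 and 12.1 at T2, all T2 arrays below background, and so was at least 1.68-fold higher at T3 (adjusted p = 0.0075). Mes2 had 157.3, 139.1 and 139.9 at T3 and 58.0, 75.3 and 55.8 at T2 (log2 fold change 1.13, adjusted p = 0.01).

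The earlier mesoderm regulators were already high at T2 and did not pass the test. The helix-loop-helix gene twi averaged 1189 ± 141 at T3 and 1210 ± 164 at T2, with a log2 fold change of -0.02, and sna averaged 1164 ± 133 at T3 and 1450 ± 179 at T2, with a log2 fold change of -0.31 (SD, n = 3 each). The apical constriction signal fog had 122.9, 106.8 and 129.4 at T3 and 66.1, 66.3 and 56.7 at T2, so that the stages did not overlap (log2 fold change 0.85, adjusted p = 0.063). Its partner in that process T48 had 166.0, 206.1 and 166.6 at T3 and 150.3, 158.3 and 130.5 at T2 (log2 fold change 0.28, adjusted p = 0.69). The count of 4 fell to 2 with centring on the hybridisation controls and with a pseudocount of 1 or of 29.6, and to 1 with the 6 arrays alone.

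In the lists of ectoderm genes single regulators rose. The Dpp pathway, dorsal ectoderm and amnioserosa list of 25 genes had 1 gene called higher, mirr, and 1 called lower, egr, with a median of 0.26. At an unadjusted p under 0.05 in limma, 6 were higher and 4 lower. The uncalled members of highest signal, tkv and Doc1, had log2 fold changes of -0.27 and -0.17, and the other tkv probe set had 0.55. The Iroquois homeobox gene mirr had 103.1, 90.9 and 118.5 at T3 and 29.7, 39.2 and 36.8 at T2 (log2 fold change 1.39, adjusted p = 0.024). Its call ended under 9 of 17 alternatives, among them any array left out except T2 replicate 3 (adjusted p between 0.052 and 0.087). The early dorsal gene zen averaged 141 ± 13.4 at T3 and 260 ± 46.4 at T2 and was not called (SD, n = 3; limma adjusted p = 0.24).

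Of 13 neurogenic ectoderm, EGF and FGF signalling genes 2 rose and none fell (3 higher and 0 lower at an unadjusted p under 0.05). The gene edl, which antagonises the ETS repressor Yan downstream of the EGF receptor, had 755.8, 686.8 and 796.0 at T3 and 257.0, 131.5 and 328.3 at T2, a log2 fold change of 1.70 ± 0.28 (SE, adjusted p = 0.0083). Dr, the msh homeobox gene of the dorsal neuroectoderm column, had 83.7, 92.5 and 129.7 at T3 and 36.3, 42.1 and 44.2 at T2 (log2 fold change 1.16, adjusted p = 0.016), and its call ended without T2 replicate 1 or T3 replicate 3 (adjusted p = 0.066 and 0.068). Among 7 midline genes comm, which keeps the Robo receptor off growing axons, had 451.5, 552.1 and 395.0 at T3 and 149.3, 166.4 and 192.7 at T2 (log2 fold change 1.42, adjusted p = 0.043). The comm call, the only one of the 7 (1 at an unadjusted p under 0.05), ended under 12 of 17 alternatives, among them each single array left out (adjusted p between 0.075 and 0.15).

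The Notch pathway list of 19 genes had 2 genes called higher and none lower (8 higher and 2 lower at an unadjusted p under 0.05). Both belong to the Enhancer of split complex, a cluster of Notch targets that holds helix-loop-helix repressors and Bearded family proteins. E(spl)mdelta-HLH had 36.9, 41.5 and 33.1 at T3 and 13.4, 2.4 and 1.0 at T2, all T2 arrays below background, and so was at least 1.69-fold higher at T3 (adjusted p = 0.024). E(spl)m2-BFM had 76.5, 72.3 and 95.6 at T3 and 11.5, 51.8 and 25.6 at T2 (log2 fold change 1.41, adjusted p = 0.043). Both are dim at T2, and their calls ended under 9 and 11 of 17 alternatives, each among them with any array left out but 1 (T2 replicate 1 for the first and T2 replicate 3 for the second; adjusted p between 0.061 and 0.13).

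Other genes of the complex did not pass both thresholds although their arrays did not overlap. E(spl)m7-HLH averaged 768 ± 102 at T3 and 399 ± 32.4 at T2 (log2 fold change 0.93, limma adjusted p = 0.036), E(spl)m5-HLH 432 ± 54.0 at T3 and 207 ± 11.9 at T2 (log2 fold change 1.03, limma adjusted p = 0.062) and E(spl)m4-BFM 1531 ± 189 at T3 and 717 ± 188 at T2 (log2 fold change 1.12, limma adjusted p = 0.10; SD, n = 3 throughout). The Bearded family gene Tom, a Notch inhibitor of the neuroectoderm that was already high, averaged 4417 ± 435 at T3 and 3807 ± 292 at T2 (SD, n = 3), and its arrays overlapped.

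Among 28 proneural and neuroblast genes 2 rose and 1, dpn, fell (7 higher and 1 lower at an unadjusted p under 0.05). The Snail family gene esg had 462.6, 579.7 and 571.1 at T3 and 147.2, 245.5 and 198.0 at T2, a log2 fold change of 1.44 ± 0.24 (SE, adjusted p = 0.0085). The proneural gene ac had 42.1, 27.4 and 29.2 at T3 and 12, 6.4 and 1.1 at T2, all T2 arrays below background, at least 1.47-fold higher at T3 (adjusted p = 0.014). Its call ended without T3 replicate 1 (adjusted p = 0.062). The proneural gene l(1)sc averaged 237 ± 64.4 at T3 and 131 ± 18.9 at T2 and was not called (SD, n = 3; limma adjusted p = 0.087). In the tracheal, hemocyte and salivary gland list of 18 genes 1 rose, bnl, an FGF ligand of the trachea, and none fell (3 higher and 3 lower at an unadjusted p under 0.05). The bnl signals were 9.8, 23.9 and 21.9 at T3 and 2.0, 1.7 and 1.7 at T2, so that all but 1 of the 6 arrays lay below background and no fold is given (adjusted p = 0.013). The bnl call ended without T3 replicate 2 or T3 replicate 3 (adjusted p = 0.058 and 0.054).

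Several of the genes with the widest rises have roles outside patterning. The gene bbg, which codes for a PDZ domain protein of epithelia, had 238.3, 197.6 and 186.9 at T3 and 51.9, 60.8 and 20.0 at T2 (log2 fold change 2.16, adjusted p = 0.0031), while its other probe set, near background at both stages, had a log2 fold change of -0.58 and was not called. The copper transporter gene Ctr1B had 171.1, 176.9 and 111.9 at T3 and 48.5, 17.1 and 50.8 at T2 (log2 fold change 1.88, adjusted p = 0.016). It was the 1 called member of 36 solute transporter genes (5 higher and 1 lower at an unadjusted p under 0.05), and its call ended without T3 replicate 1 or T3 replicate 2 (adjusted p = 0.066 and 0.070). The nucleoside transporter gene CNT2 had 209.0, 135.4 and 153.8 at T3 and 48.9, 29.2 and 43.2 at T2 (log2 fold change 1.86, adjusted p = 0.0043), and exex, the homeobox gene of motor neurons, had 114.5, 71.5 and 95.9 at T3 and 19.2, 17.7 and 24.6 at T2 (log2 fold change 1.85, adjusted p = 0.0035). For all 4 genes every T3 array was above every T2 array, as the rule that named them required.

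The 3 highest log2 fold changes of all belonged to probe sets to which the annotation used here gives no single gene symbol. Probe set 152473_at had 69.3, 89.5 and 86.4 at T3 and 9.9, 5.0 and 8.6 at T2, at least 3.70-fold higher at T3 (adjusted p = 0.00011). Probe set 153641_at had 624.5, 786.7 and 721.2 at T3 and 109.8, 116.0 and 137.5 at T2 (log2 fold change 2.48), and 141264_at had 1165.5, 1751.7 and 1923.5 at T3 and 339.1, 258.3 and 245.8 at T2 (log2 fold change 2.47). Of the 201 called probe sets 27 had no single symbol, 16 of them higher and 11 lower.

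Of the lists examined, DNA replication held the most called rises. Of 33 measured genes 8 rose and none fell (20 higher and 2 lower at an unadjusted p under 0.05), against 0.655% of all genes called higher. The members of this list too were chosen with earlier results of these data known, so its rises are a description. The median log2 fold change was 0.78, and 27 of 33 members (81.8%) lay above 0, against 49.5% of all genes. Subunits of the origin recognition complex, which marks the sites where replication starts, were 3 of the 8. Orc2 had 171.0, 137.6 and 172.9 at T3 and 66.9, 47.0 and 57.8 at T2, a log2 fold change of 1.38 ± 0.20 (SE, adjusted p = 0.0036). Orc1 had 181.3, 192.2 and 255.1 at T3 and 77.6, 111.1 and 86.6 at T2 (log2 fold change 1.13, adjusted p = 0.013). For Orc4 the T3 signals were 85.5, 99.0 and 57.8 and the T2 signals 46.9, 6.1 and 11.2, a wider spread (log2 fold change 1.86 ± 0.40 SE, adjusted p = 0.032). The T3 and T2 arrays of these 3 genes did not overlap, which the naming rule required for Orc4.

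The other 5 act at the replication fork or on its DNA. PolE1, the catalytic subunit of DNA polymerase epsilon, had 127.0, 133.9 and 133.7 at T3 and 50.1, 51.1 and 48.6 at T2, with little spread within either stage (log2 fold change 1.28, adjusted p = 0.013). RPA1, which binds single-stranded DNA, rose to 388 ± 39.0 at T3, against 183 ± 34 at T2, and DNAlig1, which joins DNA ends at the fork, to 105 ± 6.59, against 47.3 ± 15.2 (SD, n = 3). Mcm10, a helicase factor, rose to 68.3 ± 7.46 at T3, against 31.0 ± 14.9 at T2, and tos, the exonuclease Exo1, to 81.6 ± 12.7, against 34.3 ± 5.17 (SD, n = 3). Their log2 fold changes were between 1.04 and 1.09, close to the threshold.

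Of the helicase subunits, Mcm3 averaged 385 ± 12.8 at T3 and 216 ± 21.9 at T2 (log2 fold change 0.82, limma adjusted p = 0.039), and dpa, another helicase subunit, 439 ± 31.8 at T3 and 214 ± 40.5 at T2 (log2 fold change 1.03, limma adjusted p = 0.078; SD, n = 3), each missing 1 of both thresholds. PCNA, the sliding clamp, averaged 2344 at T3 and 2162 at T2 with a log2 fold change of 0.12. Cdc6, the uncalled member with the next highest signal, had a log2 fold change of -0.23 (limma adjusted p = 0.68). The lowest log2 fold change of the list was -0.68. The count of 8 depended on the settings: it was 0 with centring on the hybridisation controls (16 at an unadjusted p under 0.05), 0 with the 6 arrays alone (22 unadjusted), 1 with the replicate number as a block, 3 with a pseudocount of 29.6, 4 without T2 replicate 1, 5 without T2 replicate 4 or T3 replicate 3, 3 without T3 replicate 1 and 2 without T3 replicate 2. The list's median stayed between 0.59 and 0.89 under the 4 other scalings.

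Msh6, which recognises mismatches behind the replication fork, had the highest log2 fold change of any gene with a name. It had 273.8, 249.3 and 227.7 at T3 and 68.6, 55.0 and 31.9 at T2, a log2 fold change of 2.17 ± 0.22 (SE, adjusted p = 0.00019). Every T3 array was above every T2 array, as the rule that named it required. In the cell cycle list of 23 genes Z600 alone was called, and none rose (2 higher and 2 lower at an unadjusted p under 0.05). The mitotic cyclin gene CycB3 averaged 3920 at T3 and 3673 at T2, and trbl, which delays mitosis in the folding mesoderm, averaged 656 ± 11.9 at T3 and 991 ± 65.8 at T2 (SD, n = 3; log2 fold change -0.59, limma adjusted p = 0.091).

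Many lists held no call in either direction. None was called among 22 maternal actomyosin genes (6 at an unadjusted p under 0.05 in limma), 38 adherens junction, polarity and germ band extension genes (11 unadjusted), 13 Toll and Dorsal pathway genes (4), 23 chromatin and genome activator genes (6), 8 Hox and trunk homeotic genes (3) or 10 endoderm and gut genes (3). The same held for 5 JAK STAT genes (3 unadjusted), among which the ligand gene upd1 averaged 112 ± 16.8 at T3 and 43.3 ± 18.5 at T2 (SD, n = 3; log2 fold change 1.30, limma adjusted p = 0.062). Over all genes 14.5% had an unadjusted p under 0.05. Of the lists of maternal transcripts, none of 27 egg activation, RNA decay and localised transcripts (2 unadjusted) and none of 15 pole cell and germ plasm genes (3 unadjusted) was called. These counts do not cover wisp, Edc3 and the piRNA pathway gene BoYb, which were called lower and are given below. None of 12 heat shock (2 unadjusted), 9 glycolysis (1), 24 nuclear receptor (2) or 37 cytoplasmic ribosomal protein genes (0) was called, and mRpL43 alone rose among 64 mitochondrial ribosomal protein genes (5 unadjusted), a call that ended without T3 replicate 2 (adjusted p = 0.063). As markers of other material, 17 eggshell and yolk protein genes of the mother (0 unadjusted) and 13 late differentiation genes (2 unadjusted) held no call.

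The signals at T0 and T1 differed between the risen and the fallen transcripts. The contrast did not use the means of these stages, but their arrays entered the estimate of the spread behind the calls. Of the 93 probe sets higher at T3, 26 (28.0%) had a mean above background at T0 but not at T1, against 7.85% of all tested probe sets, and 8 (8.60%) the reverse, against 5.91%. Of the 108 lower ones, 2 (1.85%) were above background at T0 but not at T1, 17 (15.7%) at T1 but not at T0, and 76 (70.4%) at both, against 45.6% of all. All tested probe sets include the many that were below background at both stages, 40.7%, and these shares are a description with no test.

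From T0 to T1, 41 of the 93 risen probe sets (44.1%) stood at least 1 lower on the log2 scale and 8 at least 1 higher. Of the 108 fallen ones 8 stood at least 1 lower and 38 (35.2%) at least 1 higher. Over all tested probe sets 15.8% stood at least 1 lower and 8.71% at least 1 higher. Msh6 shows the first course, with 442, 7.07, 51.8, 250 and 373 over T0, T1, T2, T3 and T4. RPA1 had 818, 41.3, 183, 388 and 657 over the same stages. Both were high at T0, low at T1 and higher again from T2 on. The gene en, with 11.8, 13.5, 75.4, 279 and 300, and CadN, with 4.73, 3.87, 49.5, 202 and 290, were below background at T0 and T1. Z600, with 2.90, 6752, 1518, 154 and 59.0, had its highest mean at T1 and lower means at each later stage.

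**Figure D5:**
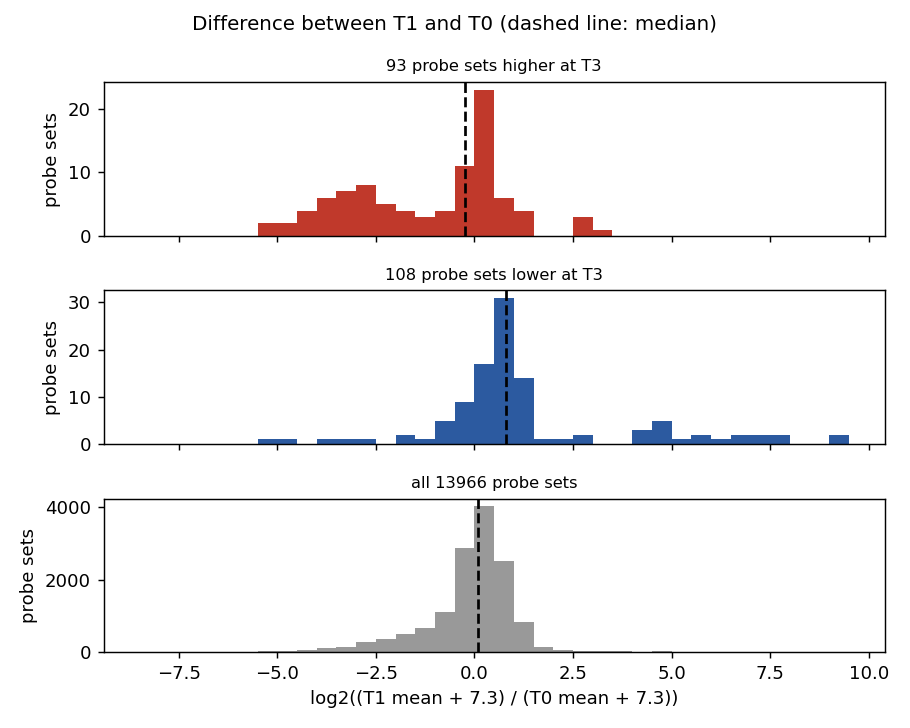
Histograms of the log2 difference between T1 and T0 (horizontal axis, mean signals plus 7.3) for the 93 probe sets higher at T3, the 108 lower at T3 and all 13966, with the median of each as a dashed line. The medians are -0.24, 0.80 and 0.08, and the upper panel has a second group of probe sets around -3.

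A search for transcripts that stood apart at T3 from both neighbouring stages found almost none. With an adjusted p under 0.05 for T3 against the mean of T2 and T4, and T3 above both by at least 1 on the log2 scale, there was 1 probe set (0.00716%), and none lay below both (11 above and 38 below at an unadjusted p under 0.05 in limma). The 1 probe set belonged to CG9592, with 10.2, 14.2 and 7.6 at T3 and 0.9 on each T2 array, below background at all stages, so that no fold is given (adjusted p = 0.049). No probe set met the criteria under 4 other scalings, array weights, the replicate block or the arrays of T2 to T4 alone, nor without T2 replicate 1, T2 replicate 3, T3 replicate 2, T3 replicate 3, T4 replicate 1 or T4 replicate 2, and there were 3 without T4 replicate 3.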

How the data were processed

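Per the labels' protocols, Trizol was used to extract total RNA from hand-selected embryos, and cRNA carrying biotin was hybridised to Affymetrix arrays. The deposited values are linear intensities, 1 per probe set and array, and the submitters' processing notes name MAS5 without a version. In the deposited intensity values the trimmed mean (2% at each end) of every array was 100, and changes are therefore relative to an array's average. Of 14010 probe sets 44 controls were left out, and in the platform annotation 12443 carried a single symbol, 327 more than 1 and 1196 none. For 12394 the symbol could be checked or renewed by Entrez identifier. A gene with several probe sets (1209 genes, none called in opposite directions) stands by the one with the highest mean over 15 arrays.

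Signals were tested as log2(signal + 7.3) with limma 3.58.1 in R 4.3.3. The pseudocount 7.3 is the 25th percentile of an array's signals, taken as the median across arrays. The model had 1 mean for each stage and used all 15 arrays, followed by eBayes and Benjamini-Hochberg adjustment over 13966 probe sets. The background level of 21.96 comes from 23 negative-control probe sets. The model was tested on simulated data. The number of arrays limits the precision.

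Named genes are the 10 highest and 10 lowest called genes without overlap of the arrays (genes with only a CG number passed over), up to 4 called genes per direction and 2 uncalled ones of the highest signal in each list, and members that stood apart at T3. Members and lists were chosen with earlier results of these data known. Further list members were named, and 7 misplaced members, none of them called, were taken off the lists, after values of this comparison had been seen. Of the listed names 11 had no match and are not analysed here. Alternatives were other scalings, pseudocounts and filters, weights for arrays, eBayes with trend and robust settings, a block for the replicate number, a fit of T2 and T3 only and leaving out arrays one by one. Centring on the hybridisation controls, and the choice of the 4 lists whose counts were followed through the alternatives, came after the data had been seen. Chromosome shares, gene lengths and promoter motifs were not described, and no sequences are given.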

Additional observations from a re-analysis of the deposited data

How the results depend on the processing

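The main fit made 201 calls for T3 against T2. Centring on hybridisation controls gave 82 calls (17 higher, 65 lower), 78 of them among the 201. A pseudocount of 1 gave 123 (55 higher, 68 lower), 115 of them among the 201. A pseudocount of 29.6 gave 131 (62 higher, 69 lower), 106 of them among the 201. Both stages fitted alone gave 15 (6 higher, 9 lower), all among the 201. Replicates 1 and 3 occur at both stages, but the deviations of equally numbered arrays from their stage means correlated with r = 0.032 and 0.028, so the numbers are not taken as pairs; with the replicate number as a block 112 probe sets were called (47 higher, 65 lower). With quantile normalization, median or ribosomal centring, the filter, the trend and array weights, the total lay between 176 and 253. Leaving out 1 array gave between 119 and 203 calls, 47 to 99 higher and 71 to 110 lower, with the lowest total without T3 replicate 2.

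The 8 called DNA replication genes became 0 with hybridisation controls, 3 with a pseudocount of 29.6, 1 with the block, 0 with both stages alone and 2 to 7 with 1 array left out. The 10 early zygotic genes became 6 with a pseudocount of 1 and 2 with both stages alone. The 4 mesoderm genes became 2 with hybridisation controls and with either other pseudocount, and 1 with both stages alone. The 3 zygotic cellularisation genes stayed at 3, or 2 with both stages alone. The 1 probe set that stood apart at T3 became 0 under quantile, median, ribosomal and hybridisation-control scaling, array weights, the block and T2 to T4 alone, 2 with the dimmest 40% left out, and 0 to 3 with 1 array left out.

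Of 50 called genes named by rule or list, none turned sign under the 17 alternatives, and 7 were called under each of them: Z600, Elba2, Sry-alpha, Mabi, hrg, bard and zfh1. With the dimmest 40% of probe sets left out only 45 of the 50 were fitted, so for the dimmer ones that alternative gave no result. The cause of the losses under the alternatives was not tested. For genes with all arrays of 1 stage below 21.96, such as ac and E(spl)mdelta-HLH, the fold is only a bound.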

Other observations

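Lists and genes in the next sentences were chosen after values had been seen, so their counts are a description. Of 31 piRNA pathway genes, which silence transposons in the germ line, 4 were called lower at T3 and none higher (1 higher and 7 lower at an unadjusted p under 0.05 in limma), with a median log2 fold change of -0.23. The Tudor-domain gene BoYb had 14.6, 10.3 and 27.1 at T3 and 86.7, 97.2 and 80.7 at T2 (log2 fold change -2.01, adjusted p = 0.0016). The related gene tej had 64.7, 131.2 and 102.4 at T3 and 261.9, 240.2 and 201.3 at T2 (log2 fold change -1.22, adjusted p = 0.013). Tudor-domain gene tapas was at least 2.31-fold lower at T3 (adjusted p = 0.043), and squ averaged 12.8 ± 10.1 at T3 and 55.4 ± 17.8 at T2 (SD, n = 3; limma adjusted p = 0.025). The calls of tapas and squ ended under 10 and 7 of 17 alternatives, among them each single array left out for tapas (adjusted p between 0.064 and 0.14) and T2 replicate 1, T2 replicate 3, T3 replicate 1 or T3 replicate 3 left out for squ (adjusted p between 0.054 and 0.095). That of tej ended without T2 replicate 1 (adjusted p = 0.056) or T3 replicate 1 (log2 fold change -0.96).

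Of 29 DNA repair genes 4 were called higher and none lower (11 higher and 0 lower unadjusted), with a median of 0.42. Besides Msh6 and tos these were WRNexo, a nuclease related to the Werner syndrome protein, with 108.9, 157.1 and 134.8 at T3 and 54.3, 38.1 and 34.3 at T2 (log2 fold change 1.51, adjusted p = 0.0035), and the apurinic endonuclease gene Rrp1, with 328.9, 325.2 and 310.8 at T3 and 151.4, 140.5 and 107.1 at T2 (log2 fold change 1.24, adjusted p = 0.0066). Among 28 axon guidance and neural adhesion genes 4 were called higher and none lower (7 higher and 2 lower unadjusted): CadN, exex, comm and Sema5c, the last at least 1.22-fold higher at T3 (adjusted p = 0.032) and not called under 10 of 17 alternatives, among them any array but T2 replicate 4 left out (adjusted p between 0.057 and 0.11).

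Of other genes picked after their values were seen, the cytoplasmic poly(A) polymerase gene wisp had 16.4, 31.5 and 28.4 at T3 and 75.3, 81.6 and 77.3 at T2 (log2 fold change -1.41, adjusted p = 0.032), and Edc3, an enhancer of decapping, had 3.4, 13.7 and 3.7 at T3 and 37, 55.1 and 30.1 at T2, at least 1.80-fold lower at T3 (adjusted p = 0.016). The linker histone gene of the early embryo, BigH1, had 10.2, 24.3 and 18.3 at T3 and 130.4, 42.3 and 52.1 at T2 (log2 fold change -1.61, adjusted p = 0.034).

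In RefSeq's gene order of the Release 6 assembly, 5 pairs of called genes were next to each other among the measured protein-coding genes. Of all genes 1.5% were called, and whether 5 pairs are more than a random order would give was not tested. Orc1 and Drat, bbg and CG9592, and WRNexo and Nup43 were higher at T3, although CG9592 was below background at all stages. CG15876 and CG13713 were lower, and Ntan1 was lower beside edl, which was higher. Drat averaged 117 ± 31.8 at T3 and 34.8 ± 3.64 at T2, and Nup43 averaged 387 ± 20.5 at T3 and 146 ± 23.6 at T2 (SD, n = 3).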
